A study of Mus musculus with 12 samples.

Results

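The adenylyl cyclases, encoded in the mouse by Adcy1 to Adcy10, were followed in an RNA-seq series of mouse back skin. Members were taken by symbol, and all 10 were found among the 18505 genes of the deposited table. Skin came from male, wild-type BALB/c mice that were 5 to 6 weeks old when supplied, with the back shaved, and was taken on day 10 from 3 groups of 4 samples each. Control skin received petroleum jelly. IMQ + NS skin received cream with imiquimod (IMQ), a Toll-like receptor agonist that induces a psoriasis-like dermatitis, for 6 h a day and was then covered with NaCl solution (NS) under gauze and film. IMQ + BZLF skin received the same cream and was then covered with Banzhilian formula (BZLF), a mixture of extracts from traditional Chinese medicinal materials. The gauze and film are described for both IMQ groups and not for the control group, so IMQ, NS and the cover cannot be told apart in a comparison with control skin, and the BZLF dose given to the sequenced mice is not stated in the sources used here. Lesions are whole skin with several cell types, and the labels do not say whether the 4 samples of a group came from separate mice, so p-values measure the spread between these samples.

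Adenylyl cyclases make cyclic AMP (cAMP) from ATP. The 9 membrane-bound forms are switched on by the alpha subunit of the stimulatory G protein Gs below hormone and neurotransmitter receptors, and they differ in their answer to calcium, calmodulin, the inhibitory G protein Gi and the G protein beta-gamma subunits. The soluble form, Adcy10, is switched on by bicarbonate. cAMP acts through protein kinase A, through the exchange factors Rapgef3 and Rapgef4 and through ion channels, and phosphodiesterases break it down. In skin, cAMP drives pigment synthesis below the melanocortin receptor Mc1r, and inhibitors of the phosphodiesterase PDE4 are used to treat psoriasis.

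Values are FPKM, the fragments of a gene divided by its transcript length in kilobases and by the mapped fragments of the sample, so that levels of different genes can be compared per length. The values of a sample added up to 444660 to 461199 FPKM in control, 492551 to 506622 FPKM in IMQ + NS and 476676 to 493935 FPKM in IMQ + BZLF skin. Every control sum was thus below every sum of the IMQ groups, so total FPKM differs along with group in comparisons with control skin. Between 16649 and 16941 genes were above 0 in a sample. The epidermal keratinocyte list, with Krt5, Krt14, Krt1, Krt10, Trp63 and Dsp, was above 0 for 6 of 6 genes in every sample. Control replicate 2 stood apart from the other control samples, with the highest sum of the hair matrix and shaft list (313 FPKM, against a control median of 13.4) and the lowest sum of the skeletal muscle list (3413 FPKM, against a control median of 7776). Pancreas genes summed to between 2.07 and 194 FPKM across the samples. Seminal vesicle genes ranged from 0 to 37.8 FPKM in control, from 0 to 0.0166 FPKM in IMQ + NS (with Svs3a, Svs4, Svs5 and Svs6 at 0) and from 0 to 37.2 FPKM in IMQ + BZLF samples.

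Groups were compared with limma on log2(FPKM + 0.1), and a gene passed at a Benjamini-Hochberg adjusted p below 0.05 over the genes tested. These were the 15288 genes with a mean of at least 0.1 FPKM over the 12 samples. All members but Adcy10 were tested. In IMQ + NS skin, 6 of the 9 members tested fell against control skin (Adcy1, Adcy2, Adcy4, Adcy5, Adcy6 and Adcy9), beside 27.1% of all genes tested. Adcy3 and Adcy8 rose, 2 of 9 members beside 29% of all genes. Adcy7, the member with the highest level in every group, did not pass. After BZLF, 1 member, Adcy1, rose against IMQ + NS skin, beside 1.28% of all genes, and 0 members fell, beside 5.17%. In IMQ + BZLF skin against control skin, the counts were again 6 lower and 2 higher, beside 29.2% and 23.8% of all genes. The genes in each direction were the same as in IMQ + NS skin against control skin.

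**Figure D1:**
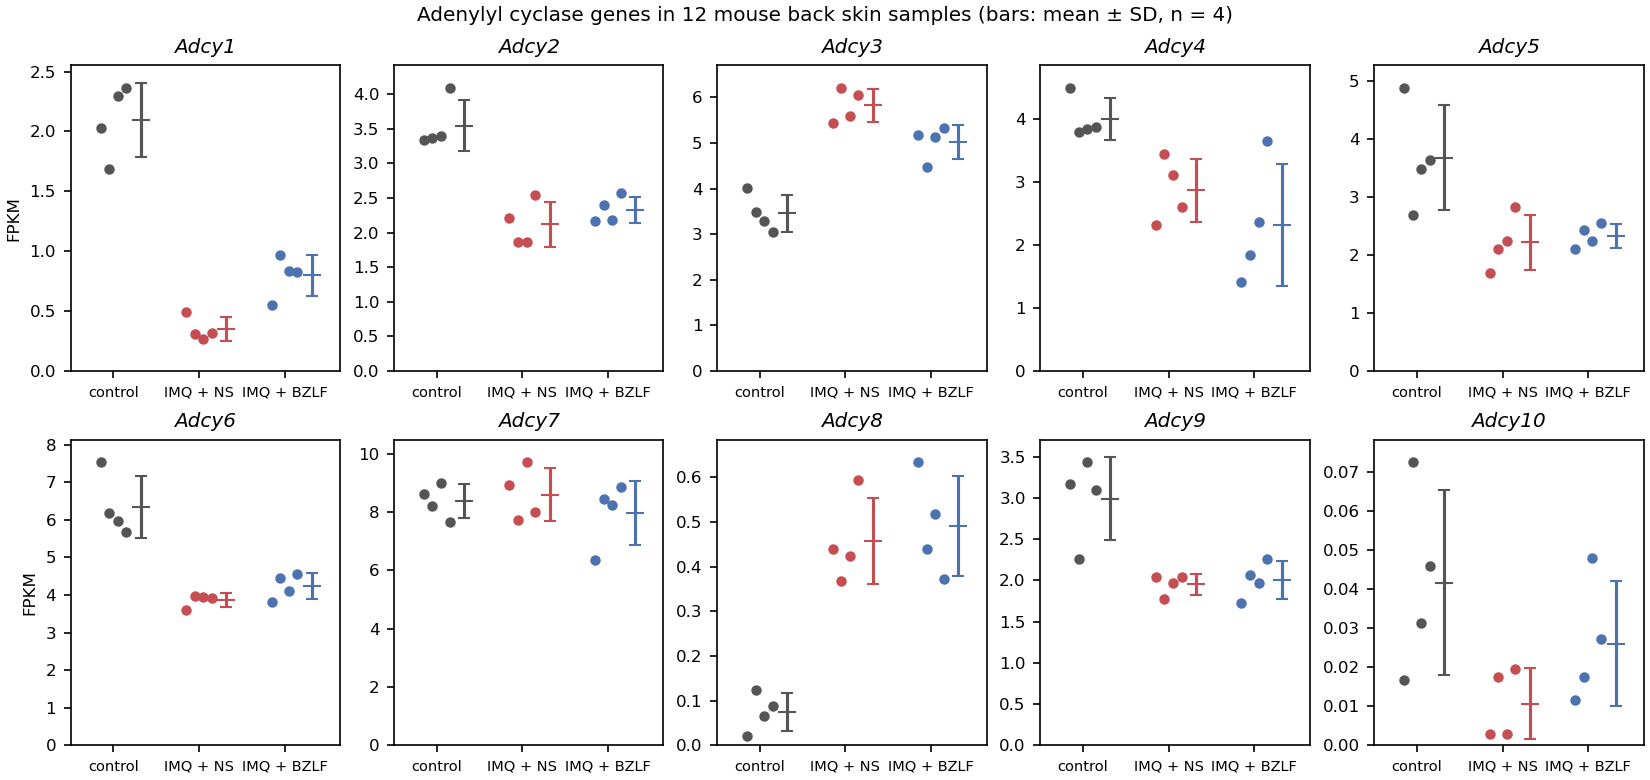
FPKM of each of the 10 adenylyl cyclase genes (vertical axis, from 0, scaled per gene) in control, NS-covered IMQ and BZLF-covered IMQ skin; points are the 4 samples of a group in replicate order and bars are the mean ± SD. The IMQ + BZLF points of Adcy1, from 0.554 to 0.970 FPKM, lie between those of the IMQ + NS group and those of the control group, while the points of Adcy7 overlap across the 3 groups.

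The first members to consider were those stimulated by calcium and calmodulin, namely Adcy1, Adcy3 and Adcy8. Adcy1, a cyclase best known from neurons, lies at chr11:7063433-7178506 on the plus strand (GRCm38). In replicate order it was measured at 2.03, 1.68, 2.30 and 2.36 FPKM in control skin, at 0.495, 0.306, 0.271 and 0.318 FPKM in IMQ + NS skin and at 0.554, 0.970, 0.837 and 0.827 FPKM in IMQ + BZLF skin. Every control sample was above every IMQ + BZLF sample, and every IMQ + BZLF sample was above every IMQ + NS sample. The means were 2.09 ± 0.309, 0.347 ± 0.1004 and 0.797 ± 0.175 FPKM (SD, n = 4), so that the level was 16.6% of control in IMQ + NS skin and 38.1% of control in IMQ + BZLF skin. The fall in IMQ + NS skin was a log2 fold change of -2.31 (SE 0.19, limma adjusted p = 2.97e-05). The rise of Adcy1 after BZLF was 1.01 (SE 0.21, 95% interval 0.53 to 1.48, limma adjusted p = 0.0250), a ratio of means of 2.30. Against control skin, Adcy1 in IMQ + BZLF skin was still lower, by a log2 fold change of -1.30 (SE 0.19, limma adjusted p = 7.19e-04). In each of the 3 comparisons the two-sided exact permutation test gave p = 0.0286, the smallest value that 4 against 4 samples allow.

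The call for Adcy1 after BZLF depended on single samples. Its log2 fold change stayed between 0.91 and 1.15 when each of the 8 samples was left out in turn, and its limma adjusted p moved between 0.0140 and 0.0762. The adjusted p was above 0.05 without IMQ + BZLF replicate 2 (0.0762), replicate 3 (0.0688) or replicate 4 (0.0561), and without IMQ + NS replicate 2 (0.0605), replicate 3 (0.0747) or replicate 4 (0.0693). Adcy1 remained called without IMQ + BZLF replicate 1 or without IMQ + NS replicate 1, the samples of each group nearest to the other group.

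Promoter windows from a RefSeq table (GRCm38.p6) each run from 250 bases before to 50 bases after a start that the table gives. That start can differ from the outer start of the gene and can lie inside it, as for Adcy2, Adcy3, Adcy4, Adcy5, Adcy7, Adcy9 and Adcy10. The table gave 11 windows for 8 of the 10 members, and those of Adcy6 and Adcy8 were not analysed here. The window of Adcy1 and the first of the windows of Adcy3 are printed here because these related, calmodulin-stimulated cyclases changed in opposite directions in IMQ + NS skin. Capitals mark GC boxes, the letters GGGCGG or their reverse complement CCGCCC, which may overlap each other.
Adcy1 (chr11:7063183-7063482, plus strand): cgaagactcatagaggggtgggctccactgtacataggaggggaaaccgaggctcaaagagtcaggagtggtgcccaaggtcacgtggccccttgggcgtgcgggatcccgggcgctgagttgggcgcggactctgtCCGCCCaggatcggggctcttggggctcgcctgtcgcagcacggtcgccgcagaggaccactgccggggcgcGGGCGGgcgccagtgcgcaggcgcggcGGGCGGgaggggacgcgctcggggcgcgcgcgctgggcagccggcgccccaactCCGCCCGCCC
Adcy3 (chr12:4133147-4133446, plus strand): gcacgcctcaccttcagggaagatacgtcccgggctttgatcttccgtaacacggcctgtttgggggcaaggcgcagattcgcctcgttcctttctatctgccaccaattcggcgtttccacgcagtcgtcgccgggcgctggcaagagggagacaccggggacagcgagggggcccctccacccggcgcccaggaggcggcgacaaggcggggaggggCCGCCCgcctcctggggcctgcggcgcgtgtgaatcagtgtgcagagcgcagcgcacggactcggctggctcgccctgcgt
The Adcy1 window held 5 GC boxes and 74% G and C, against a median of 52.7% over 32851 promoters. The printed Adcy3 window held 1 GC box and 68.7% G and C, and the other Adcy3 window (chr12:4133903-4134202) held 0 GC boxes and 56% G and C. A GC box was present in 6 of the 11 member windows (1 window each of Adcy1, Adcy2, Adcy3, Adcy5, Adcy7 and Adcy9) and in 35.7% of all promoters. The windows of Adcy9, Adcy5, Adcy2 and Adcy4, which also fell in IMQ + NS skin, held 5, 4, 3 and 0 GC boxes. Those of Adcy7, which did not pass, held 0, 0 and 1, and that of Adcy10 held 0. A link of GC boxes to the direction of change was not tested. The cAMP response element TGACGTCA was found in 0 of the 11 windows and in 1.79% of all promoters. Its shorter core TGACG, which is contained in the full element, was found in a window of Adcy7 and a window of Adcy9 and in 20.8% of all promoters. The TATA box TATAAA was found in 0 of the 11 windows and in 13.6% of all promoters, with each motif searched on both strands.

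Adcy3, the cyclase of olfactory neurons and of primary cilia, lies at chr12:4133116-4213525 on the plus strand. It was measured at 4.01, 3.50, 3.29 and 3.05 FPKM in control skin, at 5.44, 6.21, 5.59 and 6.06 FPKM in IMQ + NS skin and at 5.18, 4.47, 5.14 and 5.32 FPKM in IMQ + BZLF skin. The 3 groups did not overlap, with control skin lowest and IMQ + NS skin highest. Adcy3 rose in IMQ + NS skin by 0.74 on the log2 scale (SE 0.11, limma adjusted p = 6.24e-04), from 3.46 ± 0.408 to 5.82 ± 0.368 FPKM (SD, n = 4). IMQ + BZLF skin was at 5.03 ± 0.380 FPKM, above control skin by 0.53 (limma adjusted p = 0.00528). Against IMQ + NS skin the log2 fold change was -0.21, with a 95% interval from -0.39 to -0.03, which did not pass after adjustment (limma adjusted p = 0.163), while the two-sided exact permutation test gave its smallest value, p = 0.0286. The exons of Adcy3 share 1380 bases with those of Cenpo on the opposite strand, and whether the counting used strand is not settled by the sources. The same limit holds for Adcy6, which shares 605 exon bases with Gm29331, and for Adcy2, which shares 189 with Gm35161. Both lie on the opposite strand and had no value in the deposited table. Cenpo had 1.06, 1.21 and 1.05 FPKM in control, IMQ + NS and IMQ + BZLF skin and did not pass in IMQ + NS against control skin (log2 fold change 0.21, limma adjusted p = 0.398), nor in IMQ + BZLF against IMQ + NS skin (-0.19, adjusted p = 0.449).

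Adcy8, the third calmodulin-stimulated form, was low in every group. In control skin its values were 0.0199, 0.124, 0.0660 and 0.0869 FPKM. IMQ + NS skin had 0.439, 0.368, 0.424 and 0.594 FPKM, and IMQ + BZLF skin had 0.634, 0.439, 0.518 and 0.373 FPKM. All samples of both IMQ groups were above the highest control sample, while the IMQ groups overlapped each other. The mean rose from 0.0742 ± 0.0435 FPKM in control to 0.456 ± 0.0965 FPKM in IMQ + NS skin (SD, n = 4), a log2 fold change of 1.70 (SE 0.24, limma adjusted p = 4.90e-04), and was 0.491 ± 0.112 FPKM in IMQ + BZLF skin. The log2 fold change of IMQ + BZLF against control skin was 1.78 (limma adjusted p = 6.02e-04), and that of IMQ + BZLF against IMQ + NS skin was 0.08, with a 95% interval from -0.35 to 0.51. At this level the added constant sets part of the size, and the rise in IMQ + NS skin ranged from 0.44 with a constant of 1 to 2.64 with a constant of 0.01. The control mean was below 0.1 FPKM, so Adcy8 passed the filter of 0.1 FPKM through its level in the IMQ groups. With no filter, the rise in IMQ + NS skin had a limma adjusted p of 6.30e-04.

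Among the members that respond to G protein beta-gamma subunits, Adcy2 and Adcy4 were lower in both IMQ groups and Adcy7 did not pass in any comparison. Adcy2 was measured at 3.33, 3.36, 3.40 and 4.09 FPKM in control skin, at 2.21, 1.87, 1.86 and 2.54 FPKM in IMQ + NS skin and at 2.17, 2.40, 2.18 and 2.57 FPKM in IMQ + BZLF skin. No sample of either IMQ group reached the control range, and the IMQ groups overlapped. The means were 3.55 ± 0.365, 2.12 ± 0.324 and 2.33 ± 0.190 FPKM (SD, n = 4), and Adcy2 fell by 0.72 on the log2 scale in IMQ + NS skin (SE 0.14, limma adjusted p = 0.00212) and by 0.58 in IMQ + BZLF against control skin (limma adjusted p = 0.00340). Between IMQ + BZLF and IMQ + NS skin the log2 fold change of Adcy2 was 0.14, with a 95% interval from -0.13 to 0.41 (limma adjusted p = 0.539).

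Adcy4 had 4.49, 3.78, 3.83 and 3.88 FPKM in control skin, 2.32, 3.44, 3.11 and 2.60 FPKM in IMQ + NS skin and 1.41, 1.84, 2.36 and 3.65 FPKM in IMQ + BZLF skin. Its spread was widest after BZLF, where replicate 4 was close to the lowest control value. Adcy4 fell in IMQ + NS skin by 0.48 on the log2 scale (SE 0.14, limma adjusted p = 0.0185) and was lower in IMQ + BZLF than in control skin by a log2 fold change of -0.84 (limma adjusted p = 0.0213). The difference between IMQ + BZLF and IMQ + NS skin was -0.36, with a 95% interval from -0.95 to 0.22 (limma adjusted p = 0.445). The fall in IMQ + NS skin was lost without IMQ + NS replicate 4 or without control replicate 1 (limma adjusted p = 0.0536 in each), and with all 12 samples in one fit (0.0936). That in IMQ + BZLF against control skin was lost without IMQ + BZLF replicate 2 (limma adjusted p = 0.0581) or without control replicate 1 (0.0584).

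Adcy7, a cyclase known for its high expression in blood cells and platelets, was at 8.62, 8.21, 9.01 and 7.64 FPKM in control skin, at 8.92, 7.72, 9.72 and 8.02 FPKM in IMQ + NS skin and at 6.35, 8.44, 8.23 and 8.85 FPKM in IMQ + BZLF skin. The 3 groups overlapped, and replicate 1 of IMQ + BZLF had the lowest value. The means were 8.37 ± 0.585, 8.59 ± 0.906 and 7.97 ± 1.11 FPKM (SD, n = 4). Against control skin, IMQ + NS skin differed by 0.03 on the log2 scale (95% interval -0.20 to 0.26), and IMQ + BZLF skin differed by -0.11 from IMQ + NS skin (-0.37 to 0.15) and by -0.08 from control skin (-0.35 to 0.20), with limma adjusted p-values of 0.791, 0.612 and 0.603. Of 6 leukocyte markers, 3 rose in IMQ + NS against control skin, and 6 were lower in IMQ + BZLF skin than in either other group. Their sums were 67.6 to 121 FPKM after BZLF, 192 to 283 FPKM in IMQ + NS and 168 to 212 FPKM in control skin. Their part in the level of Adcy7 was not tested.

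The members inhibited by calcium and by Gi, Adcy5 and Adcy6, were both lower in the IMQ groups than in control skin. Adcy5 was measured at 4.87, 2.69, 3.49 and 3.63 FPKM in control skin, at 1.68, 2.11, 2.24 and 2.83 FPKM in IMQ + NS skin and at 2.10, 2.44, 2.23 and 2.56 FPKM in IMQ + BZLF skin. Control replicate 2 was below the highest IMQ + NS sample, so those groups overlapped, whereas all IMQ + BZLF samples were below the control samples. On the log2 scale the difference of Adcy5 was -0.70 between IMQ + NS and control skin (SE 0.21, limma adjusted p = 0.0194), -0.61 in IMQ + BZLF against control skin (adjusted p = 0.0182) and 0.09 in IMQ + BZLF against IMQ + NS skin (95% interval -0.25 to 0.43, adjusted p = 0.769). Without IMQ + NS replicate 1 or control replicate 1 the first of these no longer passed (limma adjusted p = 0.0539 and 0.0503), and the second did not pass without IMQ + BZLF replicate 1 (0.0504).

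Adcy6 was the member with the second highest level in control skin, at 7.54, 6.19, 5.96 and 5.69 FPKM. It was at 3.59, 3.98, 3.95 and 3.92 FPKM in IMQ + NS skin and at 3.81, 4.45, 4.11 and 4.57 FPKM in IMQ + BZLF skin. Both IMQ groups were below all control samples, and they overlapped each other. Adcy6 fell in IMQ + NS skin by 0.69 on the log2 scale (SE 0.11, limma adjusted p = 8.53e-04), from 6.34 ± 0.822 to 3.86 ± 0.181 FPKM (SD, n = 4), and was lower in IMQ + BZLF than in control skin by a log2 fold change of -0.57 (limma adjusted p = 0.00402). IMQ + BZLF against IMQ + NS skin gave 0.13, with a 95% interval from -0.06 to 0.31 (limma adjusted p = 0.397).

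Adcy9, a broadly expressed form that responds little to the plant diterpene forskolin, was at 3.17, 2.26, 3.44 and 3.10 FPKM in control skin, at 2.04, 1.77, 1.97 and 2.04 FPKM in IMQ + NS skin and at 1.72, 2.07, 1.97 and 2.27 FPKM in IMQ + BZLF skin. All IMQ + NS samples were below the control samples, and IMQ + BZLF replicate 4 was level with control replicate 2. On the log2 scale the difference of Adcy9 was -0.58 between IMQ + NS and control skin (SE 0.14, limma adjusted p = 0.00916), -0.54 in IMQ + BZLF against control skin (adjusted p = 0.0176) and 0.03 in IMQ + BZLF against IMQ + NS skin (95% interval -0.21 to 0.27, adjusted p = 0.892). Without control replicate 3, Adcy9 no longer passed in IMQ + BZLF against control skin (limma adjusted p = 0.0528).

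Adcy10, the soluble cyclase, was below the filter on low values. Its values were 0.0167, 0.0724, 0.0313 and 0.0459 FPKM in control skin, 0.00277, 0.0175, 0.00277 and 0.0194 FPKM in IMQ + NS skin and 0.0115, 0.0174, 0.0480 and 0.0272 FPKM in IMQ + BZLF skin. The groups overlapped at these levels. When genes of any level were fitted, Adcy10 differed by -0.35 on the log2 scale between IMQ + NS and control skin (limma adjusted p = 0.0544) and by 0.18 between IMQ + BZLF and IMQ + NS skin (adjusted p = 0.360).

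**Figure D2:**
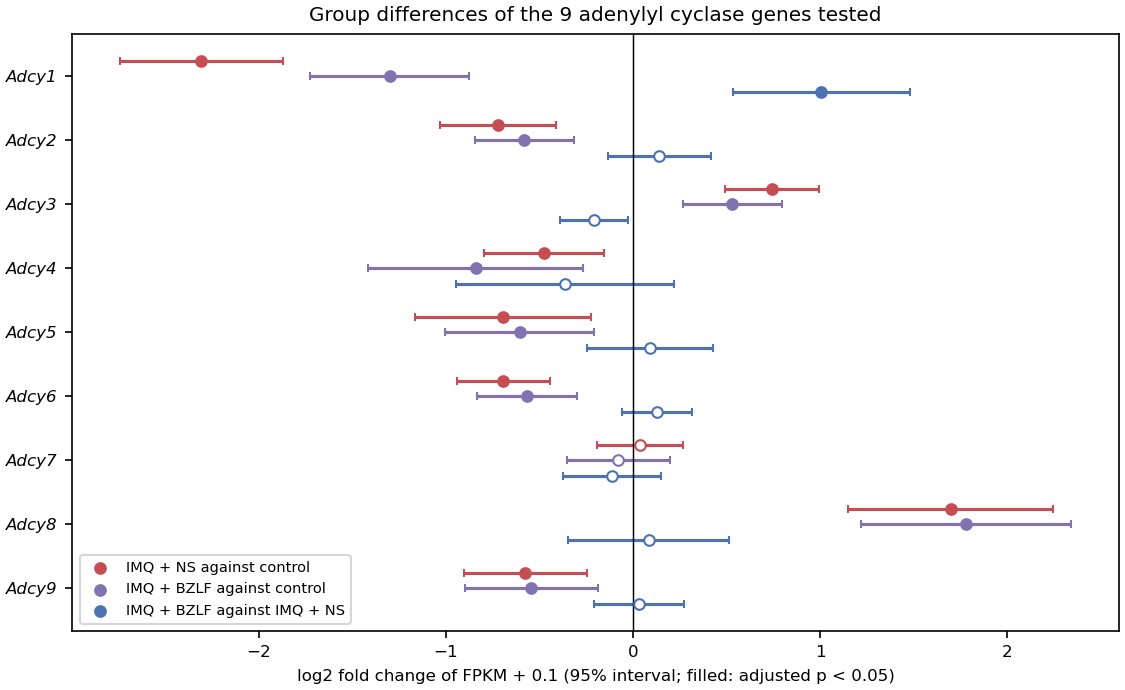
Log2 fold change of FPKM + 0.1 (horizontal axis) with its 95% interval for the 9 adenylyl cyclase genes tested, in IMQ + NS against control (red), IMQ + BZLF against control (purple) and IMQ + BZLF against IMQ + NS (blue), 4 samples a group; filled points passed at a limma adjusted p below 0.05. For IMQ + BZLF against IMQ + NS, the filled point is Adcy1, at 1.01, and the intervals of all other members but Adcy3 include 0.

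The first comparison, of IMQ + NS with control skin, asks how the cyclase genes differ between lesions and normal skin. The 2 members of 9 that rose stand beside 29% of all genes tested, and the 6 that fell beside 27.1%. Of the 2 that rose, Adcy8 entered the tested genes through its level in the IMQ groups. With a change of more than 2-fold also required, Adcy8 was higher, against 11.4% of all genes, and Adcy1 was lower, against 11%. The median log2 fold change of the 9 members was -0.58, beside a median of 0.053 over all genes tested. Without control replicate 2 the counts were again 6 lower and 2 higher. Rescaling of the samples to equal FPKM sums moved the median of all genes to -0.073 and the numbers of higher and lower genes from 4427 and 4142 to 3161 and 4999. Adcy7 was at -0.098 under that scaling, while the directions of the 8 members that passed were the same under every scaling tried.

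Markers of several skin cell types moved in this comparison, and their part in the results on the cyclase genes was not tested. In whole skin, fewer cells of a type and less RNA per cell cannot be told apart. Fibroblast markers (6 of 6 detected) summed to 13084 to 18643 FPKM in control, 3681 to 4890 FPKM in IMQ + NS and 4286 to 8109 FPKM in IMQ + BZLF skin. Skeletal muscle markers (8 of 8) had sums of 3413 to 8368, 632 to 1550 and 1114 to 1486 FPKM. For adipocytes (6 of 6) the sums were 2110 to 4243, 1258 to 1821 and 1681 to 1896 FPKM, and for Schwann cells (6 of 6) 79.3 to 128, 24.7 to 34.1 and 27.6 to 51.5 FPKM. These 4 lists were lower in IMQ + NS than in control skin, with 5, 8, 5 and 5 of their members passing. Neuron markers, among them Snap25 and Syt1, were low throughout, with sums of 3.91 to 7.86, 1.63 to 2.49 and 1.76 to 3.63 FPKM, and 3 of 6 were above 0 in every control sample. Endothelial sums (6 of 6) were 95.5 to 141, 72.9 to 84.9 and 54.1 to 86.8 FPKM, with 4 markers lower in IMQ + NS skin. Sebaceous gland sums (5 of 5) were 1050 to 1466, 515 to 748 and 686 to 925 FPKM, with 2 markers higher and 3 lower in IMQ + NS skin.

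Keratinocyte sums were 1953 to 3063 FPKM in control, 5062 to 7879 FPKM in IMQ + NS and 2464 to 3954 FPKM in IMQ + BZLF skin, and 5 of 6 markers rose in IMQ + NS skin. Hair matrix and shaft markers (7 of 7) summed to between 6.14 and 313 FPKM in control, 2156 and 3036 FPKM in IMQ + NS and 2736 and 4085 FPKM in IMQ + BZLF skin. Melanocyte markers (5 of 5) summed to 42.7 to 253, 199 to 385 and 268 to 562 FPKM, with 4 markers higher in IMQ + NS skin. Smooth muscle sums (5 of 5) were 202 to 292, 276 to 293 and 284 to 325 FPKM, with 3 markers higher and 2 lower in IMQ + NS skin. These lists and the cyclase genes were measured in the same samples, and which list a member followed was not tested.

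The second comparison, of IMQ + BZLF with IMQ + NS skin, asks what BZLF on lesions changed, and it shares the IMQ + NS samples with the first. Adcy1 was the 1 member of 9 that rose, beside 1.28% of all genes tested, and it was also over 2-fold, beside 0.321% of all genes. Its log2 fold change of 1.006 was barely over that limit of 1. The value ranged from 0.41 to 1.19 over the other settings tried and from 0.91 to 1.15 with 1 sample left out. By limma, 0 members fell, beside 5.17% of all genes (2.2% with the 2-fold limit). Adcy3, at -0.21, was the 1 further member with an unadjusted p under 0.05. The median of the 9 members was 0.083 and that of all genes was -0.023. With median ratio scaling the numbers of higher and lower genes went from 195 and 791 to 295 and 579, and Adcy1 passed under each scaling tried. The fibroblast sums overlapped between these groups. By limma, 0 of 6 fibroblast, 0 of 8 skeletal muscle and 0 of 6 adipocyte markers passed, with median log2 fold changes of 0.37, 0.49 and 0.31. Of the other lists, 3 of 6 keratinocyte and 6 of 6 leukocyte markers fell, and 1 of 5 smooth muscle markers rose. The part of these lists in the rise of Adcy1 was not tested.

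The third comparison, of IMQ + BZLF with control skin, shares samples with both others. The 2 higher members, Adcy3 and Adcy8, stand beside 23.8% of all genes tested and the 6 lower members beside 29.2%. Here too, Adcy8 was among the tested genes through its level in the IMQ groups. Over 2-fold, Adcy8 was higher, beside 9.65% of all genes, and Adcy1 was lower, beside 10.1%. The median of the members was -0.57, against -0.018 for all genes. Equal FPKM sums moved the numbers of higher and lower genes from 3640 and 4458 to 2771 and 5179. Without control replicate 2 the counts of members were the same.

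**Figure D3:**
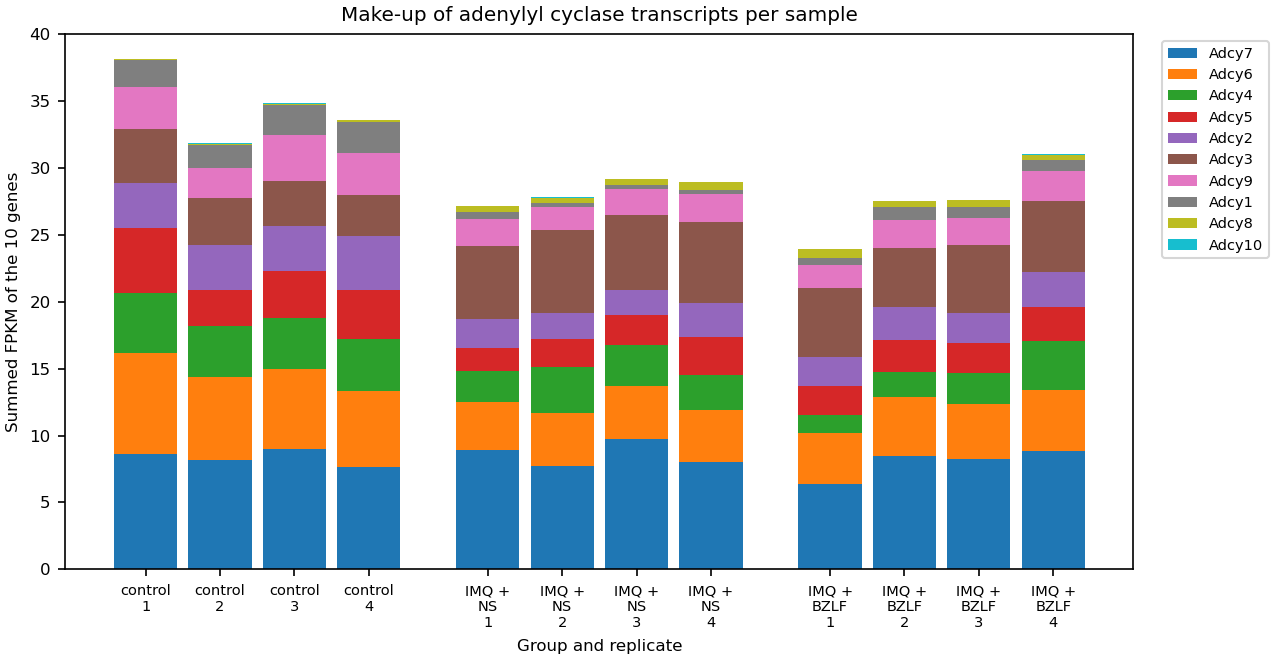
Summed FPKM of the 10 adenylyl cyclase genes in each of the 12 samples (vertical axis, from 0), stacked by gene and grouped by control, IMQ + NS and IMQ + BZLF with the replicate number below each bar. The control bars reach 31.9 to 38.1 FPKM and the IMQ + NS bars 27.1 to 29.1 FPKM, with a wider Adcy3 segment in both IMQ groups.

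The summed level of the 10 genes was 34.6 ± 2.63 FPKM for control skin, 28.2 ± 0.953 FPKM for IMQ + NS skin and 27.5 ± 2.88 FPKM for IMQ + BZLF skin (SD, n = 4). All control samples, from 31.9 to 38.1 FPKM, were above all samples of both IMQ groups, which overlapped (27.1 to 29.1 and 23.9 to 31.0 FPKM). With median ratio scaling this separation was lost, since the lowest control sample, at 28.74 FPKM, was below the highest IMQ + NS (28.75 FPKM) and IMQ + BZLF (30.3 FPKM) samples. Adcy7 took the largest share in each group, with means of 24.3%, 30.4% and 28.9% for the same order of groups. Adcy6 was next in control skin (18.3%), and Adcy3 was next in IMQ + NS (20.6%) and IMQ + BZLF skin (18.4%), up from 9.998% in control skin. Adcy1 made up 6.06%, 1.24% and 2.88% of the sum and Adcy8 0.222%, 1.61% and 1.83%. In control skin the levels of Adcy4 (3.996 ± 0.332 FPKM), Adcy5 (3.67 ± 0.903 FPKM), Adcy2 (3.55 ± 0.365 FPKM) and Adcy3 (3.46 ± 0.408 FPKM) had overlapping ranges. In IMQ + BZLF skin the same held for Adcy2 (2.33 ± 0.190 FPKM), Adcy5 (2.33 ± 0.205 FPKM) and Adcy4 (2.31 ± 0.970 FPKM). Adcy1 was above Adcy8 in every control sample. By the means, Adcy1 was above Adcy8 in IMQ + BZLF skin and below it in IMQ + NS skin, but the ranges of these genes overlapped in both IMQ groups.

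Around the cyclases, 118 further genes of cAMP signaling were listed in 9 groups, and 94 of them were tested. In IMQ + NS against control skin, 12 rose and 48 fell, with a median log2 fold change of -0.47, beside the 29% and 27.1% of all genes. The number that rose was 7 without IMQ + NS replicate 3, control replicate 1 or control replicate 4, and 17 without control replicate 2. After BZLF, 2 rose and 2 fell against IMQ + NS skin, with a median of -0.017, beside 1.28% and 5.17% of all genes. Of these, 1 rose without IMQ + BZLF replicate 2 or 3 or IMQ + NS replicate 3 or 4, and 1 fell without IMQ + BZLF replicate 1, 2 or 3 or IMQ + NS replicate 2, 3 or 4. In IMQ + BZLF against control skin, 9 were higher and 50 lower, with a median of -0.52, beside 23.8% and 29.2% of all genes, and without control replicate 2 the higher genes numbered 15.

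**Figure D4:**
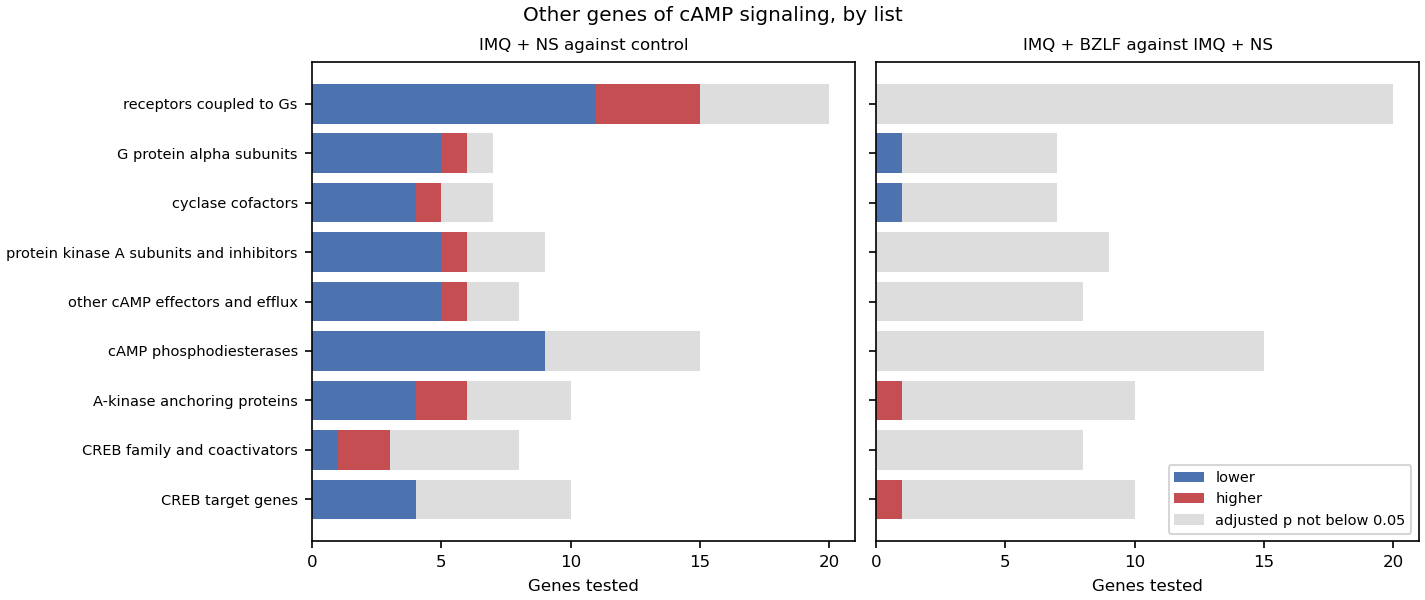
Number of tested genes (horizontal axis) in each of 9 lists of cAMP signaling genes that were lower (blue), higher (red) or did not pass (grey) at a limma adjusted p below 0.05, in IMQ + NS against control (left) and IMQ + BZLF against IMQ + NS (right), 4 samples a group. On the left, 11 of 20 receptors and 9 of 15 phosphodiesterases are lower, and on the right 4 genes in all pass. Over all genes tested, 27.1% were lower and 29% higher in the left comparison, and 5.17% and 1.28% in the right.

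Upstream of the cyclases, 11 of 20 tested receptors coupled to Gs fell in IMQ + NS skin and 4 rose, with a median of -0.87. The counts of this and the other lists stand beside 27.1% of all genes tested that fell and 29% that rose. The largest rise was that of Mc1r, the melanocortin receptor of melanocytes, by 2.96 (SE 0.81, limma adjusted p = 0.0137), from 1.28 ± 2.06 to 5.09 ± 1.40 FPKM (SD, n = 4). Control replicate 2 held 4.37 FPKM of Mc1r against 0.369 FPKM or less in the other control samples, and without it the rise was 3.89. Crhr2, a receptor for urocortins, showed the largest fall, at -2.63 (limma adjusted p = 1.77e-04). Of the 7 G protein alpha subunits, 5 fell and 1 rose. Gnas, which encodes Gs alpha at a locus with overlapping transcripts that a value per gene does not separate, fell from 145 ± 11.5 to 65.3 ± 2.83 FPKM (-1.15, SE 0.08, limma adjusted p = 8.75e-06) and was at 73.8 ± 6.94 FPKM after BZLF. Gnai3, a Gi alpha subunit, was the 1 that rose (0.28, limma adjusted p = 0.0382), and its adjusted p was 0.0791 without IMQ + NS replicate 1, 0.0740 without replicate 2 and 0.0980 without replicate 3. It was also lost without control replicate 1 (0.101), replicate 3 (0.0998) or replicate 4 (0.0877), and over the other settings tried it reached 0.261.

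Of the 7 cyclase cofactors, 4 fell and 1 rose, again beside 27.1% and 29% of all genes tested, as for each list in this paragraph. The one that rose was Cap1, a cyclase-associated protein that also binds actin (0.43, limma adjusted p = 0.00181), and the largest fall was that of its relative Cap2, which is known from muscle (-2.36, adjusted p = 4.33e-04). Among 9 protein kinase A genes, 5 fell and 1 rose. The kinase inhibitor Pkia fell by 2.28 on the log2 scale (limma adjusted p = 1.64e-05), and the regulatory subunit Prkar2a rose by 0.49 (adjusted p = 5.76e-04). The cAMP-binding membrane protein Popdc2, known from heart and skeletal muscle, fell by 2.88 (limma adjusted p = 1.22e-04), one of 5 of the 8 other effectors and efflux genes that fell, with 1 that rose. Among the phosphodiesterases, 9 of 15 fell, with a median of -0.70. Pde4a had the largest fall (-1.30, limma adjusted p = 0.00119), from 2.19 ± 0.608 to 0.806 ± 0.116 FPKM, and was at 0.801 ± 0.0880 FPKM after BZLF.

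The A-kinase anchoring proteins, which hold the kinase near its targets, were mixed, with 2 higher and 4 lower of 10 and a median of 0.13. Over all genes tested, 29% were higher and 27.1% lower, which also applies to the 2 CREB lists that follow. Akap12 had the largest fall (-2.48, limma adjusted p = 6.57e-06), and Akap9 was higher by 0.38 (adjusted p = 0.0238). Akap9 did not pass without IMQ + NS replicate 1 (0.0699) or replicate 3 (0.0570), or without control replicate 1 (0.0621) or replicate 4 (0.0645). Over the other settings tried, its adjusted p reached 0.119. Of 8 genes of the CREB family and its coactivators, 2 rose and 1 fell, and the largest rise was that of the histone acetyltransferase Ep300 (0.59, limma adjusted p = 0.00107). Among 10 target genes of CREB, 4 fell. The immediate early gene Fos fell by 4.17 (SE 0.41, limma adjusted p = 7.78e-05), from a control range of 97.7 to 313 FPKM to 8.16 to 14.6 FPKM in IMQ + NS skin, and was at 3.34 to 7.13 FPKM after BZLF.

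Of the 94 genes, 4 passed in IMQ + BZLF against IMQ + NS skin, 2 higher and 2 lower, beside 1.28% and 5.17% of all genes tested. Akap12 was at 3.76, 3.42, 3.17 and 3.36 FPKM in IMQ + NS and at 4.16, 5.64, 5.12 and 6.998 FPKM in IMQ + BZLF skin, a log2 fold change of 0.64 (SE 0.14, limma adjusted p = 0.0339). As with Adcy1, its groups did not overlap and its level stayed below that of control skin, at 19.8 ± 3.98 FPKM (SD, n = 4). Pck1, a gluconeogenic enzyme that is also expressed in fat, went from 19.1, 31.3, 26.8 and 20.9 FPKM to 43.8, 37.7, 45.4 and 45.7 FPKM (0.84, SE 0.15, limma adjusted p = 0.0134), against control values from 8.44 to 60.8 FPKM. Its adjusted p was 0.463 with all 12 samples in one fit, which shares the wide control spread. Cap1 fell from 127, 128, 142 and 139 FPKM to 107, 105, 103 and 112 FPKM (-0.33, SE 0.06, limma adjusted p = 0.0123), next to a control mean of 99.4 ± 8.63 FPKM. Gnai2, a Gi alpha subunit, fell from 162, 174, 179 and 181 FPKM to 129, 138, 146 and 156 FPKM (-0.29, SE 0.07, limma adjusted p = 0.0423), below a control mean of 216 ± 14.7 FPKM. Akap12 and Gnai2 also depended on single samples: with 1 sample left out in turn, their adjusted p reached 0.0983 and 0.124, and they stayed called in 3 and 2 of 8 fits.

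The 5 genes with a mean of at least 1 FPKM whose log2 values followed Adcy1 most closely over the 12 samples were the type II keratin Krt77, Kazald1, the reticulocalbin Rcn3, the semaphorin Sema3b and the collagen chain Col1a2, with Pearson r from 0.987 to 0.995. This is a description over 3 groups that differ in level, with 12657 genes ranked. Krt77 had means of 598 ± 227, 3.63 ± 2.26 and 34.4 ± 16.5 FPKM in control, IMQ + NS and IMQ + BZLF skin (SD, n = 4). For Col1a2, which is also in the fibroblast list, the means were 5592 ± 991, 1184 ± 236 and 2184 ± 575 FPKM. Both genes, like Adcy1, were highest in control and lowest in IMQ + NS skin by their means.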

How the data were processed

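RNA-seq of mouse skin was used from 12 samples, assigned by their titles to 3 groups of 4 (control, IMQ + NS, IMQ + BZLF). The authors deposited FPKM values, 1 per gene and sample, not pooled over replicates. The study's methods name Bowtie2 alignment to transcripts, eXpress, mirVana extraction and a stranded TruSeq library with ribosomal RNA removal, whereas the submitters' processing notes list fastp, HISAT2, HTSeq, R 3.2.0 and mm10 and the labels name TRIzol and a VAHTS kit. Which of these made the table is not settled. FPKM divides by transcript length and mapped fragments, so a few abundant transcripts can lower all other values of a sample. Of 13933 low values, 32.7% were within 0.05 of a whole number of steps, a step being a gene's smallest value (10% if evenly spread), so counts were not rebuilt and the number of fragments behind each value is unknown. The 4 replicates give the precision.

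R 4.3.3 with limma 3.58.1 was run on log2(FPKM + 0.1) with variances moderated along a trend, on each pair of groups of 4, over 15288 genes with a mean of at least 0.1 FPKM, with Benjamini-Hochberg adjustment. The constant understates changes of genes near 0. No count model was used. The method was tested on simulated data first. Python 3.11.15, pandas 2.3.3 and matplotlib 3.10.9 handled tables and plots. Alternatives were constants of 0.01 and 1, no filter or a mean of at least 1 FPKM, 3 scalings, all 12 samples in one fit, other variance settings, call rules with a 2-fold limit, the replicate number as a block and leaving out each sample.

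The family, the 9 pathway lists, the 14 marker lists and the tests were chosen with earlier results of these data known. Named pathway genes were all those that passed in IMQ + BZLF against IMQ + NS, and in IMQ + NS against control the largest rise and fall of each list with a mean of at least 1 FPKM. Gpr6 and Akap2 had no row in the table. Gene positions came from RefSeq for GRCm38.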

Additional observations from a re-analysis of the deposited data

Results flagged for a closer look

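Within groups of 4 samples, 3 values of the family lay far from the other samples by Dixon's test, which chance does in about 1 group of 20, and 10 genes in 3 groups were looked at. Control replicate 4 had the highest Adcy2 value, 4.09 FPKM, with the next at 3.40 FPKM. Control replicate 1 had the highest Adcy4 value, 4.49 FPKM, with the next at 3.88 FPKM. IMQ + NS replicate 1 had the lowest Adcy6 value, 3.59 FPKM, with the next at 3.92 FPKM.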

How the results depend on the processing

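With a mean of at least 1 FPKM, 1 member was higher in IMQ + NS and 1 in IMQ + BZLF against control, because Adcy8 was no longer tested. Rules with a 2-fold limit left 1 higher and 1 lower member in each of these comparisons, by construction. Leaving out 1 sample gave 4 to 6 lower members in IMQ + NS and 5 to 6 in IMQ + BZLF against control, and 0 to 1 higher member in IMQ + BZLF against IMQ + NS, with fewer samples in each fit. With equal sums the family sum of IMQ + NS was 27.2 FPKM, and control stayed apart (34.4 to 39.7 FPKM), whereas with median ratio scaling control (from 28.74 FPKM) overlapped IMQ + NS (to 28.75 FPKM) and IMQ + BZLF (to 30.3 FPKM). Differences that had not passed changed sign: Adcy7 in IMQ + NS against control to -0.0067 (median ratio), -0.098 (equal sums), -0.13 (quantile normalization) and -0.026 to 0.083 with 1 sample left out, Adcy7 in IMQ + BZLF against control (-0.13 to 0.025), and in IMQ + BZLF against IMQ + NS Adcy8 (-0.028 to 0.19), Adcy9 (-0.026 to 0.099) and Adcy5 (-0.030 to 0.21).

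Correlations of the deviations ran from -0.15 to 0.26 for samples of the same number and from -0.24 to 0.27 for samples of different numbers. For replicates 3 and 4 the same-number values were positive in all 3 comparisons (0.11 to 0.26). These values do not settle whether samples were paired. The labels do not say that the numbers pair samples, so they were not used as a pairing. With the replicate number as a block, 0 members were higher in IMQ + BZLF against IMQ + NS, with Adcy1 at an adjusted p of 0.0719 (0.0120 to 0.0762 over all alternatives, samples left out included), and 5 members were lower in IMQ + NS against control, with Adcy4 lost (0.0569, against 0.00521 to 0.0936 over all alternatives). The cause was not tested. The table gives no counts, so no counting interval can be set on Adcy8 and Adcy10.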
